A study of Arabidopsis thaliana with 6 samples.

Results

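The genes described here are the protein-coding genes of the chloroplast genome, measured in Arabidopsis thaliana roots. A gene was taken where the platform annotation mapped a probe set (the group of probes that together report 1 transcript) to 1 gene of that genome. This gave 69 probe sets for 69 genes among 22746 non-control probe sets. Photosystem II accounted for 15 genes, photosystem I with its assembly factors for 7, the cytochrome b6f complex for 6 and the NDH complex for 10. The ATP synthase had 6, the plastid ribosome 15 and the plastid RNA polymerase 4. The large subunit of Rubisco, rbcL, was measured by 1 probe set, and 5 further proteins (accD, clpP, matK, ccsA and cemA) stood apart from these complexes. A further 8 probe sets, each listed with 2 chloroplast genes, were left out and not named.

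The study used Affymetrix ATH1 arrays on root RNA of 7-day-old seedlings that had grown on vertical plates of diluted Murashige and Skoog medium. There were 3 groups of 2 arrays: AtRXR1 overexpression (OX), AtRXR1 mutant (MUT) and WT. The labels gave neither the promoter nor the line of the overexpressor, nor the allele of the mutant, nor whether replicates were separate plants, so that each p-value sets a difference against the scatter of these arrays, whose source may be technical. AtRXR1 belongs to the DUF506 family and is known to hold back root hair growth; its own level was not analysed here, since no probe set was named for its locus.

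The chloroplast genome holds a small set of genes for photosynthesis and for its own transcription and translation, while most plastid proteins are encoded in the nucleus and imported. All plant cells carry this genome, also the colourless plastids of roots, where transcripts of photosynthesis genes are normally scarce relative to leaves. Plastid genes are read as long multi-gene transcripts by 2 kinds of RNA polymerase. One is assembled from plastid-encoded core subunits and nuclear sigma factors and serves photosynthesis genes above all, and the other is a nuclear-encoded, phage-type enzyme that serves mainly the housekeeping genes. Plastid transcripts lack long stable poly(A) tails, and the 3′ kit used for these arrays starts from such tails, so the signals need not be proportional to transcript amount.

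Signals were compared as log2 of the deposited values after RMA, the array method that corrects background, equalises the distribution of signals between arrays and summarises the probes of a set. Median signals of the 6 arrays lay between 108.3 and 111.3. Precision is limited by the small number of arrays. WT replicate 2 stood apart over the whole array, with deposited correlations of 0.97 to 0.9826 with the other 5 arrays, against 0.9938 to 0.9978 among those 5. RNA quality was read from the actin control, whose 3′ minus 5′ difference was 1.21 and 1.11 log2 units in OX and 1.29 and 1.19 in MUT, against 1.39 and 1.4 in WT. That of GAPDH overlapped between the groups (0.25 and 0.29 in OX, 0.36 and 0.15 in MUT, against 0.37 and 0.28 in WT), and that of ubiquitin was lowest in WT (0.01 on both OX arrays, -0.03 and -0.01 in MUT, against -0.1 and -0.04 in WT). Of 31 root markers only 2 were matched to a probe set. PYK10, a beta-glucosidase abundant in roots, lay between 13.32 and 13.67 log2 units on all arrays, and UPB1 between 7.70 and 8.03. Both OX arrays lay below both MUT arrays for these 2, against 20.3% of all probe sets. Of 40 leaf and shoot markers 7 were matched to a probe set, and 5 of these 7 lay in the lowest quartile of the array. Rubisco activase (RCA), at 8.51 to 9.07 log2 units, was the brightest of them.

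Signals of the chloroplast genes spanned most of the range of the array. Their means over the 6 arrays ran from 3.30 to 11.67 log2 units with a median of 7.02, against a median of 6.78 over all probe sets. The lowest quartile of the array (a mean up to 4.60) held 12 of the 69, and 57 lay above it. The brightest probe set of each complex was psbM (11.67, a small subunit of photosystem II), atpE (11.45, a subunit of the ATP synthase), rpoA (10.99, the alpha subunit of the RNA polymerase), ndhI (10.25), rps3 (10.10), petB (9.63) and psaB (8.71). The dimmest were atpI (3.30), ndhF (3.41), petG (3.67), psbT (3.9), psaC (4.16), rps16 (4.16) and rpoB (4.36). Because probe sets differ in how well they bind, these levels order signals and not transcript amounts.

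In OX roots most chloroplast genes had somewhat higher signals than in WT roots, but no gene passed the test. Differences were tested with limma over all probe sets, and a gene was called at an adjusted p under 0.05. Of the 69 genes 0 were called, against 0.101% of all probe sets. The signal was higher in OX for 59 genes and lower for 10, against 51.6% of all probe sets higher. The median difference was 0.15 on the log2 scale, against 0.0057 over all probe sets. Both OX arrays lay above both WT arrays for 31 genes, or 44.9%, against 21.6% of all probe sets. The opposite pattern held for 0 genes, against 19.8% of all probe sets. At an unadjusted p under 0.05 there were 19 genes higher and 0 lower, against 5.36% and 6.48% of all probe sets. The smallest adjusted p was 0.0833, for rpl16. An exact permutation test of 2 arrays against 2 could not go below p = 0.333 for any single gene.

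MUT roots also had higher signals than WT roots for most of these genes, with a smaller median. Here 0 of 69 were called, against 0.0044% of all probe sets, and the smallest adjusted p was 0.524. The signal was higher for 51 genes and lower for 18, against 48.4% of all probe sets higher, with a median of 0.097 against -0.0051. Both MUT arrays lay above both WT arrays for 25 genes, against 19.1% of all probe sets. They lay below for 2, petN and ycf3, against 19.0%. At an unadjusted p under 0.05 there were 11 genes higher and 0 lower, against 4.99% and 4.33% of all probe sets. Both comparisons use the same WT arrays, so they are not independent of each other.

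Between OX and MUT roots the differences were small. No member was called (0 of 69, against 0.0132% of all probe sets), and 52 were higher in OX, against 51.4% of all probe sets. The median was 0.069, against 0.0035 over all probe sets. Both OX arrays lay above both MUT arrays for 15 genes, or 21.7%, close to the 20.3% of all probe sets. They lay below for 2, ndhI and ndhH, also against 20.3%. At an unadjusted p under 0.05 there was 1 gene higher, psaB, and 0 lower, against 2.31% and 2.73% of all probe sets. Standard errors of the members' differences ran from 0.0827 to 0.204 with a median of 0.116, in each of the 3 comparisons. In RNA from whole roots, fewer cells of a type and less RNA per cell cannot be told apart.

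**Figure D1:**
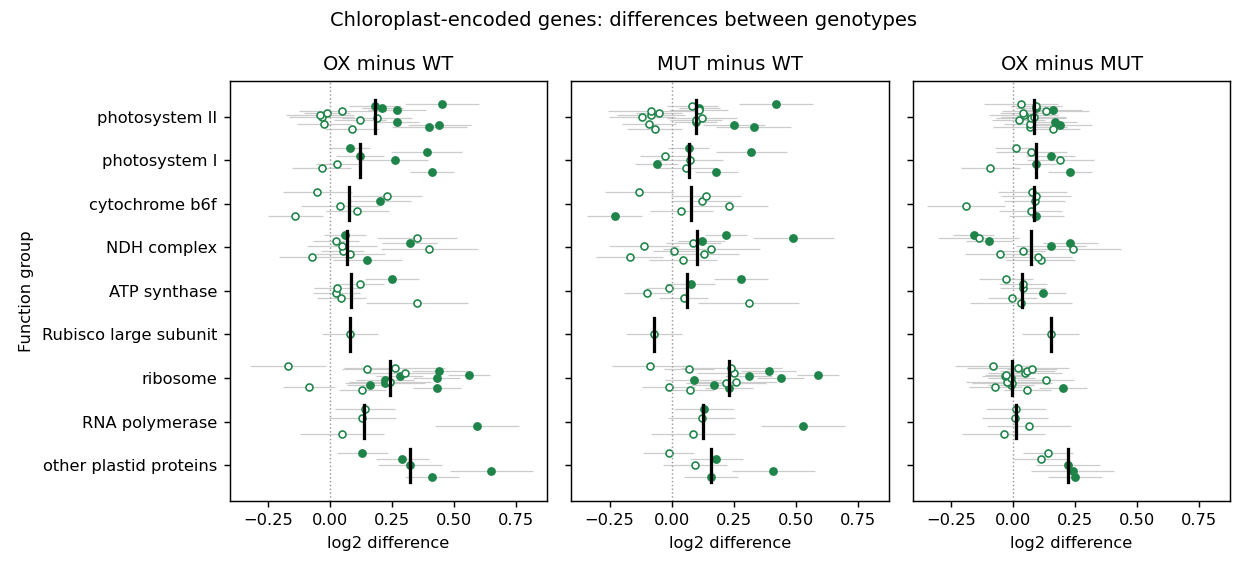
Difference in log2 signal of each chloroplast gene (points) by function group (rows) in the 3 comparisons (panels). Filled points are genes whose arrays do not overlap between the groups, open points the others, grey lines show ± 1 SE, and black bars mark the group medians. Photosystem II genes lie at or above -0.041 in OX minus WT and all 15 lie above 0 in OX minus MUT, while the ribosomal genes centre on 0.24 in OX minus WT and on -0.0035 in OX minus MUT.

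The single arrays did not contribute equally. Set against each gene's mean over the 6 arrays, the median over the 69 genes was 0.15 in OX replicate 1 and 0.0038 in OX replicate 2. It was 0.00081 and 0.026 in the MUT arrays, and -0.10 and -0.048 in the WT arrays. OX replicate 1 had the highest signal of the 6 arrays for 44 genes, and WT replicate 1 the lowest for 33. Within the OX pair, 62 of 69 genes were higher in replicate 1, with a median difference of 0.15, while the median over all probe sets was -0.0034. This gap between replicates is as large as the median difference between OX and WT. Without OX replicate 1 the OX minus WT median was 0.087 and 50 of 69 genes were higher, and without OX replicate 2 it was 0.24 with 65 higher. The OX minus MUT median was -0.017 without OX replicate 1, with 29 of 69 higher, and 0.14 without OX replicate 2, with 61 higher. The part of the replicate gap in these differences was not tested.

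**Figure D2:**
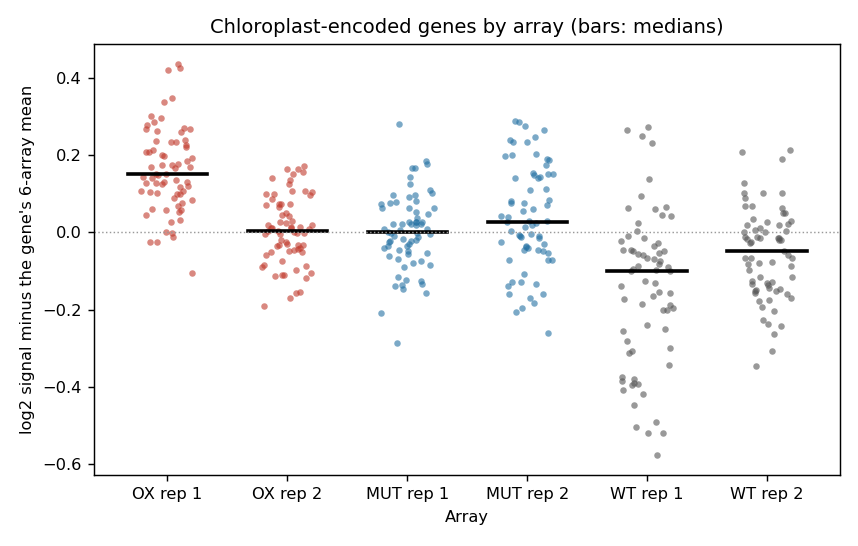
Log2 signal of each of the 69 chloroplast genes on each array, minus that gene's mean over the 6 arrays (points), with the median per array (bars). The OX replicate 1 bar stands at 0.15, the other OX and both MUT bars lie between 0.00081 and 0.026, and the WT bars lie at -0.10 and -0.048, with a tail of low values in WT replicate 1.

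Genes of the plastid ribosome stood higher in both lines than in WT. Of 15 genes, 13 were higher in OX and 13 in MUT, with medians of 0.24 and 0.23, and 0 were called. Both OX arrays lay above both WT arrays for 8 of 15, against 21.6% of all probe sets, and both MUT arrays for 7, against 19.1%. With 1 array left out, the OX median ran from 0.11 (without WT replicate 1) to 0.37 (without WT replicate 2). The MUT median ran from 0.095 to 0.37 without the same arrays. The OX minus MUT median was -0.0035, with 7 higher and 8 lower. It was -0.051 without OX replicate 1, with 2 of 15 higher, and 0.061 without OX replicate 2, with 13 of 15 higher.

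The largest of these differences belonged to rpl16, a protein of the large ribosomal subunit. It had 8.47 and 8.45 log2 units in OX roots and 8.46 and 8.52 in MUT roots, against 7.87 and 7.94 in WT roots. All 4 arrays of the lines lay close together and well above both WT arrays. The difference was 0.56 ± 0.0842 for OX (SE, 2 arrays per group, 1.47-fold, 95% interval 0.36 to 0.76, limma adjusted p = 0.0833). For MUT it was 0.59 ± 0.0842 (1.5-fold, 95% interval 0.39 to 0.79, limma adjusted p = 0.524). The OX minus MUT difference was -0.028, with an interval of -0.23 to 0.17.

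Several other proteins of the large subunit also had all 4 line arrays above both WT arrays. For rpl36 the signals were 9.47 and 9.40 in OX and 9.42 and 9.47 in MUT, against 8.92 and 9.09 in WT, with differences of 0.43 ± 0.095 for OX and 0.44 ± 0.095 for MUT (limma adjusted p = 0.211 and 0.524). For rpl22 they were 9.58 and 9.45 in OX and 9.49 and 9.42 in MUT, against 8.95 and 9.19 in WT, with differences of 0.44 and 0.39. In both genes the lines overlapped each other and not WT. The same held for rpl14, with differences of 0.28 and 0.31. It did not hold for all large-subunit genes: rpl33 overlapped WT in MUT and rpl32 in both lines, 2 genes named after their values had been seen. In the small subunit, rps2 had 5.81 and 5.68 in OX and 5.61 and 5.48 in MUT, against 5.33 and 5.29 in WT. Here OX lay above MUT as well as WT, by 0.43 ± 0.0955 over WT (limma adjusted p = 0.211) and 0.20 ± 0.0955 over MUT (limma adjusted p = 0.999).

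Not all ribosomal genes followed. The small-subunit gene rps15, at 5.93 and 5.98 in OX and 6.20 and 5.87 in MUT against 6.30 and 5.94 in WT, had the lowest differences of the group, at -0.17 and -0.086. The arrays of the 3 groups overlapped. The other small-subunit gene below WT was rps14, at -0.085 in OX and -0.013 in MUT. The dimmest, rps16, differed by 0.13 and 0.075.

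The largest group of ribosomal genes shares a transcript. The rpl23 transcription unit is a long multi-gene transcript that codes mainly for ribosomal proteins and ends with rpoA; 7 of its genes were measured (rps19, rpl22, rps3, rpl16, rpl14, rpl36 and rpoA). All 7 were higher in OX and all 7 in MUT, with medians of 0.30 and 0.31, and between OX and MUT the median was 0.011. WT replicate 1 was the lowest array for all 7. Against each gene's mean over the arrays, the unit's median was 0.18 and 0.014 in OX and 0.080 and 0.14 in MUT, against -0.37 and -0.15 in WT. In order along the unit, the OX minus WT differences were 0.15, 0.44, 0.30, 0.56, 0.28, 0.43 and 0.14, so the ends of the measured stretch differed least. The 9 ribosomal genes outside the unit had medians of 0.22 in OX and 0.17 in MUT. Without the unit, the remaining 62 chloroplast genes had medians of 0.13 for OX and 0.091 for MUT against WT. Genes of 1 transcript are not independent measurements of a condition.

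**Figure D3:**
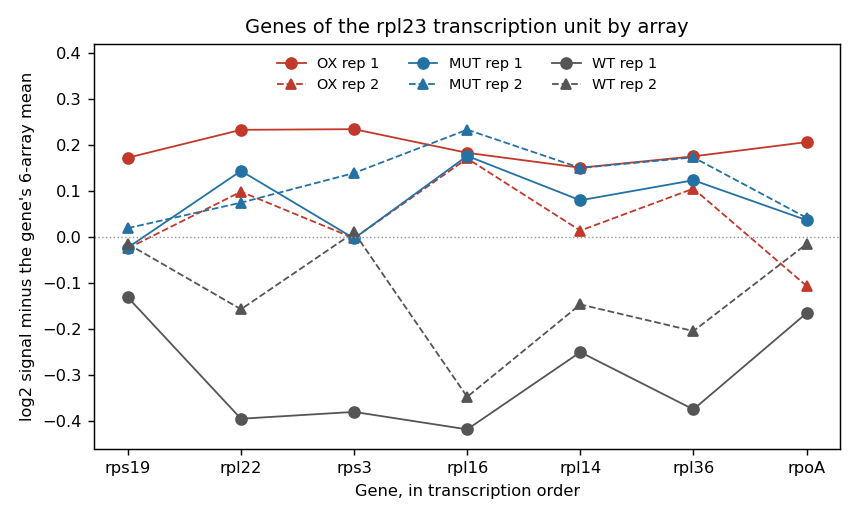
Log2 signal of the 7 measured genes of the rpl23 transcription unit, minus each gene's mean over the 6 arrays (y axis), in transcription order (x axis), with 1 line per array. Both WT lines run below the others at rpl22, rpl16, rpl14 and rpl36, while at rps19, rps3 and rpoA WT replicate 2 meets arrays of the other groups.

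The size of the differences from WT depended on which WT array was kept. Without WT replicate 1, the medians over the 69 genes were 0.10 for OX and 0.059 for MUT, both lower than with the array. The WT array kept there is replicate 2, which stood apart over the whole array. Without WT replicate 2 the medians were 0.22 for OX and 0.13 for MUT. In such a fit the remaining WT array is assumed to vary like the arrays of the other groups.

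The plastid-encoded RNA polymerase subunits were each higher in both lines, with 4 of 4 in OX (median 0.14) and 4 of 4 in MUT (median 0.13), and 0 called. The beta-prime subunit gene rpoC1 had 7.30 and 6.90 log2 units in OX and 6.90 and 7.17 in MUT, against 6.36 and 6.65 in WT. Both lines lay above WT, and their own replicates were 0.40 and 0.27 apart. Its differences were 0.59 ± 0.169 for OX (1.51-fold, limma adjusted p = 0.277) and 0.53 ± 0.169 for MUT (1.44-fold, limma adjusted p = 0.524). The beta-double-prime subunit gene rpoC2 differed by only 0.047 and 0.086, the beta subunit gene rpoB by 0.13 and 0.12, and rpoA by 0.14 and 0.13. The genes rpoB, rpoC1 and rpoC2 lie on 1 transcript, their 95% intervals in OX overlapped (-0.18 to 0.45, 0.20 to 0.99 and -0.35 to 0.44), and differences between them were not tested. The OX median of the 4 was 0.016 without OX replicate 1 and 0.26 without OX replicate 2, and the MUT median was 0.25 without MUT replicate 2. In OX minus MUT the 4 genes ranged from -0.039 to 0.063. These values depended on the OX array kept. The median was -0.14 without OX replicate 1, with 0 of 4 genes higher in OX, and 0.13 without OX replicate 2, with 4 of 4 higher.

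The genes outside the complexes included the highest difference of all 69. This was accD, which encodes the plastid subunit of acetyl-CoA carboxylase, the first enzyme of fatty acid synthesis. It had 7.46 and 7.19 log2 units in OX and 6.98 and 7.18 in MUT, against 6.45 and 6.89 in WT. The 3 groups did not overlap and stood in the order OX, MUT, WT, with WT replicates 0.44 apart. The difference was 0.65 ± 0.167 for OX (1.57-fold, 95% interval 0.26 to 1.05, limma adjusted p = 0.246) and 0.41 ± 0.167 for MUT (1.33-fold, limma adjusted p = 0.533).

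The same order of groups was seen for matK, the maturase that helps splice plastid introns. Its signals were 9.09 and 8.96 in OX and 8.76 and 8.80 in MUT, against 8.74 and 8.50 in WT. It differed by 0.41 ± 0.109 between OX and WT (limma adjusted p = 0.260). In OX minus MUT it had the highest difference of the 69, at 0.25 ± 0.109 (interval -0.0092 to 0.50, limma adjusted p = 0.999). The protease subunit gene clpP was higher by 0.29 in OX and 0.18 in MUT. The envelope protein gene cemA was higher by 0.32 and 0.094, and ccsA, needed to attach haem to cytochromes, differed by 0.13 and -0.012. Both OX arrays lay above both WT arrays for all 5 genes outside the complexes, against 21.6% of all probe sets, with a median of 0.32. Both MUT arrays did so for 3 of the 5, against 19.1% of all probe sets, with a median of 0.16. Of these 5 genes 0 were called.

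Genes read by the phage-type polymerase and genes read by the plastid-encoded polymerase were compared as 2 lists from general knowledge of their promoters. The first held rpoB, rpoC1, rpoC2 and accD, all 4 higher in OX and in MUT, with medians of 0.36 and 0.27. The second held 11 photosynthesis genes, of which 7 were higher in OX and 5 in MUT, with medians of 0.079 and -0.050. No difference between the lists was tested. In OX the values ran from 0.047 to 0.65 in the first list and from -0.041 to 0.41 in the second. The lists are not made of separate measurements. In the first, rpoB, rpoC1 and rpoC2 lie on 1 transcript. In the second, the lowest values, -0.041 in OX and -0.12 in MUT, were those of psbL and psbJ, which share the psbE transcription unit.

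Photosystem II, the water-splitting complex, had 11 of 15 genes higher in OX than in WT (median 0.18) and 9 of 15 in MUT (median 0.096), with 0 called. Without WT replicate 1 these medians were 0.048 and -0.0033, and with 32 added to the signals before log2 the OX median was 0.092. The highest was psbH, a small phosphoprotein of the complex. It had 6.81 and 6.68 log2 units in OX and 6.65 and 6.77 in MUT, against 6.06 and 6.51 in WT. Its 4 line arrays lay above both WT arrays, while the WT replicates were 0.45 apart. The difference was 0.45 ± 0.150 for OX (1.37-fold, limma adjusted p = 0.338) and 0.42 ± 0.150 for MUT (1.34-fold, limma adjusted p = 0.525). The small subunit gene psbI had 9.51 and 9.40 in OX and 9.18 and 9.36 in MUT, against 8.86 and 9.16 in WT, a difference of 0.44 ± 0.126 for OX (limma adjusted p = 0.279).

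Among the chlorophyll-binding core subunits, psbD, which encodes the reaction-centre protein D2, had 5.40 and 5.31 in OX and 5.19 and 5.17 in MUT, against 5.13 and 5.03 in WT. Its groups did not overlap, with differences of 0.27 ± 0.0878 in OX (limma adjusted p = 0.332) and 0.096 in MUT. The inner antenna genes psbC and psbB differed by 0.12 and 0.27 in OX. The other reaction-centre gene, psbA for D1, was named after its values had been seen, since it lay outside the rule for named genes. It had 6.55 and 6.29 in OX and 6.32 and 6.21 in MUT, against 6.29 and 6.37 in WT, so that the groups overlapped, with differences of 0.088 and -0.069.

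Within photosystem II the psbE transcription unit differed little from WT in OX. It codes for the cytochrome b559 subunits (psbE and psbF) and for psbL and psbJ. All 4 were highest in WT replicate 2. Their median was -0.023 in OX and -0.083 in MUT, and none had groups that did not overlap. For psbE the signals were 8.61 and 8.66 in OX and 8.29 and 8.72 in MUT, against 8.39 and 8.79 in WT. The psbB unit (psbB, psbT, psbH, petB and petD) had 4 of 5 higher in OX, with a median of 0.23, and petD at -0.052. In the psbD unit (psbD, psbC and psbZ) all 3 were higher in OX, by 0.12 to 0.27.

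Every photosystem II gene was higher in OX than in MUT, 15 of 15, by 0.021 to 0.19, as were rbcL and the 5 genes outside the complexes. The median was 0.082, 4 of the 15 (against 20.3% of all probe sets) had groups that did not overlap, and 0 had an unadjusted p under 0.05. The largest was psbI, at 0.19 ± 0.126 (interval -0.11 to 0.49), and the smallest psbC, at 0.021. OX replicate 1 was the highest array for 9 of the 15, and without it 8 of the 15 were higher in OX than in MUT, with a median of 0.029. Centring the arrays on mitochondrial probe sets gave a median of -0.0089, with psbC at -0.07.

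Photosystem I had 6 of 7 genes higher in OX (median 0.12) and 5 of 7 in MUT (median 0.068), and 0 called. Without the probe sets in the lowest quartile the OX median was 0.19. Its reaction-centre gene psaB had 8.97 and 8.87 log2 units in OX and 8.71 and 8.68 in MUT, against 8.47 and 8.56 in WT. The 3 groups stood apart without overlap. The difference was 0.41 ± 0.0882 for OX against WT (1.33-fold, limma adjusted p = 0.198) and 0.18 ± 0.0882 for MUT against WT (limma adjusted p = 0.556). Between OX and MUT it was 0.23 ± 0.0882 (1.17-fold, 95% interval 0.020 to 0.43, unadjusted p = 0.0355, limma adjusted p = 0.937).

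The partner of psaB in the reaction centre, psaA, lies next to it on the same transcript. It had 5.48 and 5.18 in OX and 5.40 and 5.45 in MUT, against 5.43 and 5.30 in WT. These groups overlapped, with differences of -0.034 for OX and 0.059 for MUT, so the 2 neighbours gave different values. The small subunit gene psaJ was higher by 0.39 in OX and 0.32 in MUT. The iron-sulphur subunit gene psaC differed by 0.078 and 0.068, and the assembly factors ycf3 and ycf4 by 0.029 and 0.12 in OX and by -0.061 and -0.028 in MUT.

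The cytochrome b6f complex, which carries electrons between the photosystems, had 4 of 6 genes higher in OX and 4 of 6 in MUT, with medians of 0.073 and 0.078 and 0 called. The OX median changed sign, to -0.033, without OX replicate 1 and was 0.21 without WT replicate 2. The MUT median was -0.0066 without WT replicate 1 and 0.14 without WT replicate 2. The cytochrome b6 gene petB was the highest in OX, at 9.83 and 9.65 against 9.32 and 9.70 log2 units in WT, a difference of 0.23 with overlapping arrays. The small subunit gene petN was the lowest member of all in MUT. It had 6.41 and 6.38 in OX and 6.32 and 6.28 in MUT, against 6.68 and 6.39 in WT, and differed by -0.14 in OX and -0.23 ± 0.112 in MUT (limma adjusted p = 0.552). Both MUT arrays lay below both WT arrays, and the OX arrays overlapped WT. For petL the difference was 0.039 in OX, 0.23 in MUT and -0.19 between OX and MUT, the lowest of the 69 in that comparison.

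The NDH complex, which returns electrons from ferredoxin to the plastoquinone pool, had 9 of 10 genes higher in OX and 8 of 10 in MUT, with medians of 0.069 and 0.10 and 0 called. The OX median was 0.16 without OX replicate 2 and 0.20 without the probe sets in the lowest quartile, and the MUT median was 0.056 without MUT replicate 1. The membrane-arm gene ndhA had 8.09 and 7.79 log2 units in OX and 8.05 and 8.10 in MUT, against 7.36 and 7.81 in WT. Its MUT arrays lay above both WT arrays, and its OX arrays overlapped WT. The difference was 0.35 ± 0.163 for OX (limma adjusted p = 0.453) and 0.49 ± 0.163 for MUT (1.4-fold, limma adjusted p = 0.524). For ndhD the OX difference was 0.40 with overlapping arrays, since WT replicates were 7.07 and 7.59. For ndhG, at 5.29 and 5.12 in OX and 5.08 and 4.86 in MUT against 4.93 and 4.84 in WT, the OX arrays lay above the others, by 0.32 ± 0.111 over WT (limma adjusted p = 0.359).

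Both genes in which OX lay below MUT on all arrays belonged to this complex. The signals of ndhH, a subunit of the peripheral arm, were 3.68 and 3.67 in OX and 3.81 and 3.86 in MUT, against 3.65 and 3.58 in WT. MUT stood above the other groups, by 0.22 ± 0.0842 over WT (limma adjusted p = 0.525), with a difference of -0.16 ± 0.0842 between OX and MUT (limma adjusted p = 0.999). This probe set lies in the lowest quartile of the array. The iron-sulphur subunit gene ndhI, bright at 10.31 and 10.14 in OX and 10.31 and 10.33 in MUT, against 10.22 and 10.18 in WT, differed by -0.099 between OX and MUT. Its OX replicate 1 value equals the lower MUT value when rounded. The ndhH unit, with psaC and 6 ndh genes measured, had 7 of 7 higher in OX but a median of only 0.078. The ndhC unit (ndhC, ndhK and ndhJ) ran from -0.072 for ndhK to 0.15 for ndhJ.

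The ATP synthase had 6 of 6 genes higher in OX and 4 of 6 in MUT, with medians of 0.081 and 0.063 and 0 called. The OX median ran from 0.037 without OX replicate 1 to 0.16 without OX replicate 2. The beta subunit gene atpB had 11.12 and 11.12 log2 units in OX and 11.02 and 11.28 in MUT, against 10.85 and 10.89 in WT. All 4 line arrays lay above WT, by 0.25 ± 0.108 in OX (limma adjusted p = 0.421) and 0.28 ± 0.108 in MUT (limma adjusted p = 0.525). The alpha subunit gene atpA had 6.21 and 5.79 in OX and 5.87 and 6.06 in MUT, against 5.38 and 5.92 in WT. Its difference of 0.35 in OX was the highest of the complex, its WT replicates were 0.54 apart, and its groups overlapped. The membrane subunit genes atpH, atpF and atpI, which lie with atpA on 1 transcript, differed by 0.024, 0.045 and 0.029 in OX.

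For rbcL, the Rubisco large subunit, the signals were 7.36 and 7.23 log2 units in OX and 7.01 and 7.28 in MUT, against 7.20 and 7.24 in WT. The groups overlapped. The differences were 0.079 ± 0.113 for OX (interval -0.19 to 0.35) and -0.073 ± 0.113 for MUT (interval -0.34 to 0.19).

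The differences of genes next to each other on the chloroplast genome were set against those of other pairs. Over the 68 pairs of neighbouring measured genes, the median gap between their OX minus WT differences was 0.191, against 0.176 over all 2346 pairs of members. Within transcription units the gap was 0.154 over 81 pairs. For MUT minus WT the gaps were 0.173 between neighbours, 0.184 within units and 0.167 over all pairs. For OX minus MUT they were 0.0771, 0.0758 and 0.0932, so the order of the gaps differed between comparisons. Brightness went with the size of the OX difference: its median was 0.078 over the 23 dimmest genes, 0.19 over the 23 in the middle and 0.23 over the 23 brightest. Over all probe sets in the same ranges of signal, the medians were 0.0058, 0.0056 and 0.0078.

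**Figure D4:**
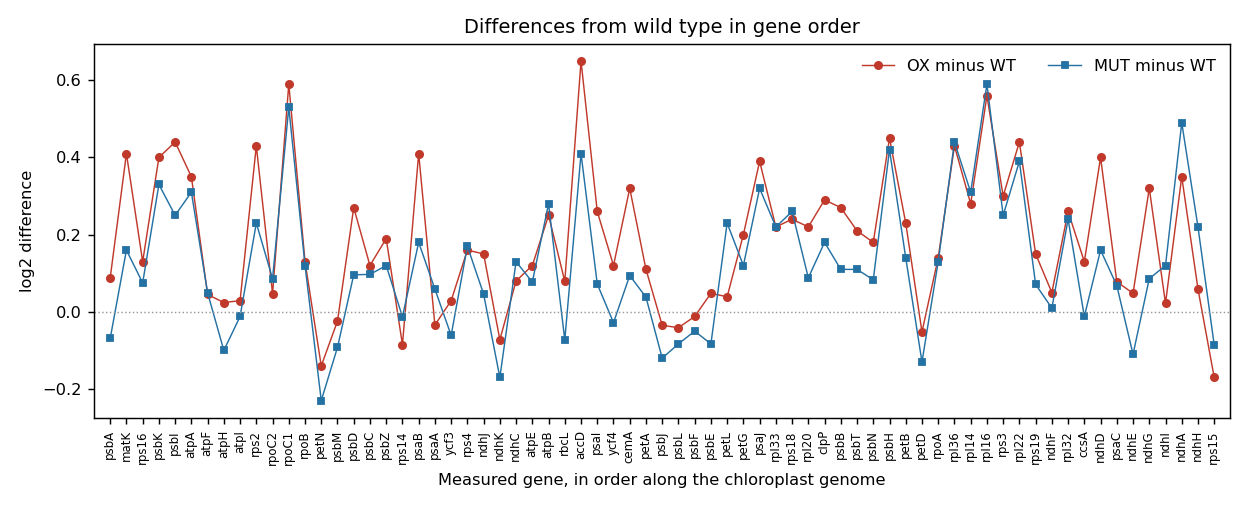
Difference in log2 signal from WT (y axis) for the 69 genes in their order along the chloroplast genome (x axis, rank and not distance), for OX and for MUT. The rpl23 unit forms a run of positive values in both lines, with rpl16 at 0.56 and 0.59, while the psbE unit lies near or below 0, between -0.12 and 0.048.

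Most of the nuclear genes matched for the same complexes had lower signals in the lines than in WT. Of 76 nuclear names for photosystem, antenna, cytochrome b6f, ATP synthase and Rubisco proteins, 10 were matched to a probe set. Matching went by name among the 13513 probe sets annotated with 1 gene, so an unmatched name need not be absent from the array. The 10 need not stand for the rest of the list. In OX 9 of the 10 were lower than in WT, with a median of -0.43, and 8 had groups that did not overlap, against 19.8% of all probe sets; 0 were called. In MUT 9 of 10 were lower, with a median of -0.24. The lowest was PSAN, a luminal subunit of photosystem I, at 7.04 and 6.97 log2 units in OX and 7.37 and 7.61 in MUT, against 7.81 and 7.65 in WT. The groups stood in the order OX, MUT, WT from low to high, the reverse of psaB. It differed by -0.72 ± 0.112 in OX (limma adjusted p = 0.0895). PSBY, a small photosystem II protein, differed by -0.56 ± 0.119 in OX (limma adjusted p = 0.191) and by -0.40 ± 0.119 in MUT (limma adjusted p = 0.524). The difference between the plastid and the nuclear genes was not tested.

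Other nuclear lists that serve the plastid had 0 genes called. Of 36 names of nuclear NDH subunits, 3 were matched to a probe set. Of these 3, 2 were lower in OX and 3 in MUT, with medians of -0.074 and -0.15. The lowest, NdhS, was at 6.63 and 6.61 in OX and 6.62 and 7.00 in MUT, against 6.97 and 7.34 in WT, a difference of -0.54 ± 0.162 in OX (limma adjusted p = 0.303). Of 43 names of factors of plastid RNA processing and decay, 10 were matched. Of these 10, 7 were higher in OX, with a median of 0.039. Their highest was OTP84, an RNA editing factor, at 0.23. The 10 genes of chlorophyll synthesis and greening that were matched, of 41 names, had a median of -0.064 in OX and -0.011 in MUT. Of 27 names of non-photosynthetic plastid proteins 2 were matched, with a median of -0.0023 in OX. Of 34 names of nuclear plastid polymerases and sigma factors, 0 were matched to a named probe set, and these genes were not analysed here.

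Of the 7 matched leaf and shoot markers, 5 were lower in OX and 7 in MUT than in WT, with medians of -0.16 and -0.14 and 0 called. Summed over these 7, the signals were 8.95 and 8.89 log2 units in OX and 9.0 and 9.14 in MUT, against 9.27 and 9.33 in WT. The sum rests largely on RCA, Rubisco activase, which was also among the 10 nuclear genes above, at 8.58 and 8.51 in OX and 8.67 and 8.85 in MUT, against 8.94 and 9.07 in WT. Its difference in OX was -0.46 ± 0.101 (limma adjusted p = 0.211). RMA signals have no true 0, and 5 of the 7 markers lay in the lowest quartile. The part of leaf or shoot tissue in the results for chloroplast genes was not tested.

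The 23 probe sets of the mitochondrial genome, the other organelle genome, were set beside them. Their median difference was 0.028 in OX, with 12 higher and 11 lower, and -0.071 in MUT, with 4 higher and 19 lower. Between OX and MUT it was 0.084, with 17 higher. Their medians against the mean over arrays were 0.090 and -0.032 in OX and -0.025 and -0.094 in MUT, against -0.00045 and 0.044 in WT, so OX replicate 1 was the highest array in both organelle sets. When each array was centred on the mitochondrial probe sets, the chloroplast median was 0.17 for OX and 0.20 for MUT against WT. Between OX and MUT it became -0.023, with 25 of 69 genes higher. That centring moves the median of all probe sets by up to 0.10, to 0.020, 0.10 and -0.088 in these 3 comparisons.

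**Figure D5:**
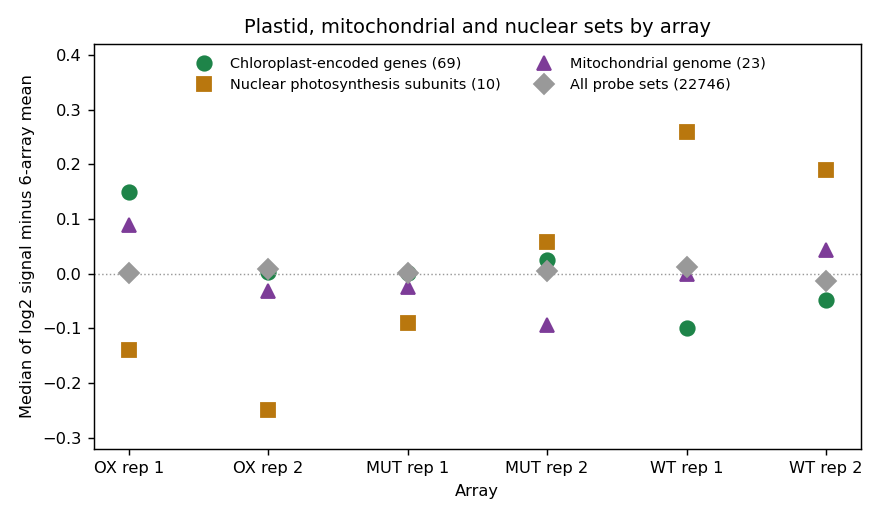
Median over each set of log2 signal minus the 6-array mean (y axis), by array (x axis), for the 69 chloroplast genes, 10 nuclear photosynthesis genes, the 23 mitochondrial probe sets and all 22746 probe sets (symbols). The chloroplast median is highest in OX replicate 1, at 0.15, and lowest in WT replicate 1, at -0.10, while the 10 nuclear photosynthesis genes are at -0.14 and -0.25 in OX and at 0.26 and 0.19 in WT.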

How the data were processed

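The 6 arrays were grouped by the genotype in the labels. Per the submitters' processing notes, the deposited intensity values came from RMA in Affymetrix Expression Console (no version is given in the sources used here), on a linear scale. A second deposited table holds the authors' correlation score (Pearson's r) for each pair of arrays. Log2 of the deposited intensities was taken with no offset. Of 22810 probe sets, 64 controls were left out. The fit used limma 3.58.1 in R 4.3.3 (lmFit, eBayes) on the 6 arrays, with a mean for each genotype, which leaves 3 degrees of freedom for the residual beside 4.25 of the prior, and two-sided p-values adjusted by Benjamini-Hochberg over all 22746 probe sets. The procedure was also run on simulated data with independent noise of equal spread on all 6 arrays. That run does not cover an array that stands apart, and its outcome is not given here.

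The platform annotation names 1 gene for 13513 probe sets and several for 503. The TAIR10.1 gene table gave the locus, chromosome, symbol and order of these genes, and so decided which belong to the chloroplast genome. Mitochondrial probe sets were matched by symbol or synonym to the mitochondrial entries of that table. Members, lists and the naming rule were chosen with earlier results of these data known. The rule names called members, the brightest, dimmest, highest and lowest of each complex, up to 10 members per comparison with the largest moderated t whose groups do not overlap, members of transcription units with at least 3 measured genes, and the 2 with the largest t per nuclear list. Function groups, transcription units and nuclear lists come from general knowledge. The 15 alternative settings are given in the closing section.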

Additional observations from a re-analysis of the deposited data

How the results depend on the processing

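With 2 arrays per group, no chloroplast gene was called in any comparison, and of the alternative values for counts called and for the medians over all 69 genes 84 kept their size and 9 did not. Of those for single complexes 37 moved. These include sign changes of the cytochrome b6f median in the overexpressor and of the photosystem II median in the mutant, given with the results. The labels do not say whether same-numbered replicates share anything. Over all probe sets, the correlations of same-numbered arrays' deviations were 0.053 (WT with OX), 0.316 (WT with MUT) and 0.125 (OX with MUT). Over the 69 genes, replicate differences correlated at -0.38, 0.5 and -0.23 for the same pairs of groups. Pairing is therefore not settled, and the main fit left the replicate number out. With the replicate number as a block, 1 chloroplast gene was called in the overexpressor, rpl16 (limma adjusted p = 0.0478), and 0 in the other comparisons. In the overexpressor that fit called 167 probe sets, against 23. Leaving out 1 array in turn gave 0 to 5 genes called for the overexpressor and 0 to 2 for the mutant against wild type, and 0 between the lines. For both lines, the highest count against wild type came without wild type replicate 1, which leaves 1 wild type array. In both comparisons that fit called a larger share of all probe sets than of the 69 genes. These counts therefore do not set the chloroplast genes apart from the rest of the array. Over the fits without 1 array, the medians ran from 0.087 to 0.24, from 0.059 to 0.13 and from -0.017 to 0.14. Centring on mitochondrial probe sets gave medians of 0.20 for the mutant against wild type and -0.023 between the lines. Adding the 8 probe sets listed with 2 genes, a setting chosen after the annotation had been seen, gave an overexpressor minus wild type median of 0.16. The cause of these moves was not tested.

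The settings were followed for 67 single-gene differences, the highest and lowest of each complex and the largest moderated t per comparison. Of these, 21 changed sign under a setting, each within 0.17 of 0 in the fit over all arrays. Other differences given above were not followed, so a gene missing from this list need not keep its sign. Without 1 array, the overexpressor minus wild type ran from -0.03 to 0.078 (atpH), -0.074 to 0.17 (rpoC2), -0.29 to 0.0048 (petN), -0.18 to 0.11 (psaA), -0.18 to 0.036 (ndhK), -0.21 to 0.13 (psbL) and -0.35 to 0.014 (rps15). The mutant minus wild type ran from -0.15 to 0.32 (rpoC2), -0.21 to 0.061 (rbcL), -0.26 to 0.021 (psbJ), -0.09 to 0.066 (ccsA) and -0.27 to 0.095 (rps15). The overexpressor minus the mutant ran from -0.28 to 0.20 (rpoC2), -0.14 to 0.26 (rpoC1), -0.059 to 0.10 (psbC), -0.24 to 0.056 (psaA), -0.16 to 0.10 (atpB), -0.0092 to 0.22 (clpP) and -0.25 to 0.087 (rps15). Centring on mitochondrial probe sets gave 0.0063 (atpH), 0.045 (ycf3), 0.033 (rbcL), 0.094 (ccsA) and 0.020 (rps15) for the mutant, and -0.028 (rpoC1) and -0.07 (psbC) between the lines; the sign of these 7 follows the shift of the whole array.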
